A study of Mus musculus with 3 samples.

Results

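Gfap, Vim and Nes, the genes of the intermediate filament proteins GFAP, vimentin and nestin, were followed through single-cell libraries of the adult mouse subventricular zone (SVZ), the germinal layer along the lateral wall of the lateral ventricle. The 3 genes were taken by symbol from the 27998 genes that each of the 3 count matrices lists, without use of their values. Mice of the line aSMACreERt2::Rosa26-tdTomato, in which a tamoxifen-dependent Cre driven by the smooth muscle actin promoter switches on tdTomato, had been crossed with B6;129S-Sox2tm2Hoch/J mice, whose Sox2 allele expresses GFP. The background was C57/Bl6(3/4) and 129S1SvlmJ(1/4), and the cells of all groups come from mice with both reporters. Sorting for tdTomato and GFP gave a library from 1200 double-positive cells, called tdTomato-positive here, and 2 libraries of cells with GFP alone, called tdTomato-negative, from 1200 (library 1) and 6000 cells (library 2). The protocol names adult animals (n = 5) and papain at 37 °C for 30 min, and separate animals for each library are not named in the labels. Each p-value below therefore rests on a spread between samples that may be technical replicates. In the main fits of edgeR, the program used for the tests, that spread was pooled over genes. These p-values do not measure the spread of the tested gene itself. The age of the animals beyond adult is not given in the sources used here.

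Intermediate filaments are rope-like cytoskeletal polymers whose subunits differ between cell types. GFAP is the classical filament of astrocytes and of the astrocyte-like stem cells of the SVZ. Vimentin is a filament of many glial, vascular and immature cells, including ependymal cells, the multiciliated lining of the ventricle. Nestin is widely used as a label of neural progenitors and is also made by endothelial cells, and its polymerisation depends on a partner such as vimentin.

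In the GENCODE M21 annotation of GRCm38, Gfap (ENSMUSG00000020932) is a gene of the minus strand at chr11:102887336-102900912 with 9 exons in its consensus coding transcript. It overlaps Gm26668, a long noncoding RNA of the other strand that had 3 UMIs over all barcodes. Vim (ENSMUSG00000026728, plus strand, 9 exons) lies at chr2:13573927-13582826, and Nes (ENSMUSG00000004891, plus strand, 4 exons) at chr3:87971078-87980451. The promoters of the 2 genes that were seen together least often, Gfap and Nes, are printed here 5′ to 3′ from RefSeq on GRCm38.p6, at chr11:102897201-102897450 on the minus strand and chr3:87970843-87971077 on the plus strand, with matches to the searched motifs in capitals.
Gfap promoter: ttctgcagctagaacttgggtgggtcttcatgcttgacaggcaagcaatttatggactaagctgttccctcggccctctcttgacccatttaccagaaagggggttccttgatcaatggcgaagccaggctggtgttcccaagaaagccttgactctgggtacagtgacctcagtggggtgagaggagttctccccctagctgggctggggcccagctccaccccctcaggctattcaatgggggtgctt
Nes promoter: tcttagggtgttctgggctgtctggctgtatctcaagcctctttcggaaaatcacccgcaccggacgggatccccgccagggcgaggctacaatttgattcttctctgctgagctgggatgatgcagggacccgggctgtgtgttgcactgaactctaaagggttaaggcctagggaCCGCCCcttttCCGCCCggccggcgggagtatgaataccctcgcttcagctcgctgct
The motifs were TATAAA (the TATA box, in 12.4% of 32817 RefSeq promoters of 250 bases), CCAAT (33.8%), GGGCGG (the GC box, 32.7%) and TTCNNNGAA (the core bound by STAT factors, 7.01%), each on both strands. The Gfap window had none of these letters. The Nes window had GGGCGG on its reverse strand at 73 to 68 and at 62 to 57 bases before the RefSeq start, printed as CCGCCC. The Vim window, which is not printed because the annotation places it in an exon, had TATAAA at 32 to 27 bases before the start and CCAAT at 196 to 192 and, on the reverse strand, at 94 to 90. The Nes stretch was 58.7% G and C with 14 CpG, against 55.6% and 2 CpG in the Gfap stretch (medians over all promoters 52.4% and 6).

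UMIs (unique molecular identifiers, each standing for 1 captured transcript) were counted at the 3′ end of transcripts. The tdTomato-positive library held 314 barcodes and 788344 UMIs, against 259 and 1127 barcodes with 929997 and 3593633 UMIs in tdTomato-negative libraries 1 and 2. Filters of at least 300 genes and no more than 25% mitochondrial UMIs left 252, 256 and 1121 barcodes as cells, with median UMIs of 2535, 2639.5 and 2401. Median mitochondrial shares were 8.27%, 3.22% and 3.38%. At most 2 barcodes were shared by any pair of libraries. Scrublet, a doublet caller, called 9, 2 and 3 cells (3.57%, 0.781% and 0.268%), which were kept and left out as an alternative. Cells were grouped by clustering without Gfap, Vim, Nes and the gene lists used below, and clusters were named from marker genes. The classes were ependymal-like (177 cells in the tdTomato-positive library, 12 and 45 in the tdTomato-negative ones), astrocyte-like (16, 44 and 222), dividing-like (0, 26 and 115), neuroblast-like (1, 42 and 323), oligodendrocyte precursor-like (69 cells), oligodendrocyte-like (37), microglia-like (14), endothelial-like (20) and mural-like (8). The last 3 came from the tdTomato-positive library alone. Clusters of 350 cells led by Prokr2 and of 108 cells led by Ung and Mcm3 stayed unnamed.

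Kept cells held 368 UMIs of Gfap in 139 cells, 1485 of Vim in 548 cells and 122 of Nes in 98 cells. Levels are given as CPM, the UMIs of a gene scaled to all UMIs of a library's cells of a class, and the same gene is compared between classes, never one gene with another.

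Gfap was concentrated in 1 of the 2 astrocyte-like clusters. Its 71 cells held 65.8% of all Gfap UMIs. The cluster is called Thbs4-high here, since Thbs4 (thrombospondin 4, an astrocyte matrix protein) stood among its leading genes after Gfap and Id3. Of its 10 leading genes Thbs4 alone was an astrocyte marker, and 13 of the 16 markers were over 2-fold higher in it than in the other cells. The other cluster, of 211 cells with Slc7a10, Htra1 and Ntm as leading genes, had no Thbs4 UMI and is called Thbs4-low. In the Thbs4-high cluster the Gfap level was 8239 CPM in tdTomato-positive cells (2 cells), 1948 CPM in tdTomato-negative library 1 (13 cells) and 1164 CPM in library 2 (56 cells). In the Thbs4-low cluster it was listed at 0 UMIs in the tdTomato-positive library (14 cells), which allows up to 114.5 CPM, and was 112 and 104 CPM in the tdTomato-negative libraries. The groups did not overlap, and the share of all genes for which that holds was not counted.

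The mean Gfap level in the Thbs4-high cluster was 1556 ± 554 CPM (SD, n = 2 tdTomato-negative libraries), against 71.8 ± 62.3 CPM in the Thbs4-low cluster (SD, n = 3). The log2 fold change was 3.51 ± 0.31 (SE, edgeR's quasi-likelihood test, adjusted p = 6.2e-26), in a fit that did not hold the 2 tdTomato-positive cells of the Thbs4-high cluster. Vim differed the same way, with 504, 332 and 295 CPM in the Thbs4-high cluster of the 3 libraries and 115, 69.9 and 47.1 CPM in the Thbs4-low cluster. Its log2 fold change was 2.27 ± 0.44 (adjusted p = 3.04e-05 by the same test). In this comparison 4.11% of 3116 tested genes passed, 2.02% higher and 2.09% lower. Nes had 0 UMIs in the Thbs4-high cluster and 1 in the Thbs4-low cluster. The Vim call was lost without either tdTomato-negative library: adjusted p was 0.0536 without tdTomato-negative library 1 and 0.963 without library 2, where the log2 fold changes were 2.33 and 2.01. Summed astrocyte markers were at 18730 and 14455 CPM in the Thbs4-high cluster and 25363 and 24173 CPM in the Thbs4-low cluster of the tdTomato-negative libraries, and their part in the result was not tested.

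Within the Thbs4-high cluster the cells ranged widely. No Gfap UMI was found in 35 of the 71 cells, 8 had 1, 9 had 2 to 4 and 19 had 5 or more. In the Thbs4-low cluster 177 of 211 cells had none and 1 cell had 5 or more. The 10 cells with the most Gfap, all of the Thbs4-high cluster, held 151 UMIs or 41.0% of the total, and each of them also had 1 to 3 Vim UMIs. The share of cells with a Gfap UMI was 50.7% in the Thbs4-high cluster (Clopper-Pearson 95% interval 38.6% to 62.8%, median 2143 UMIs per cell), against 16.1% in the Thbs4-low cluster (11.4% to 21.8%, median 2462). After each cell was thinned to 1000 UMIs the shares were 46.3% and 7.35%. These intervals, and the limits given for a count of 0, cover counting error only.

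**Figure D1:**
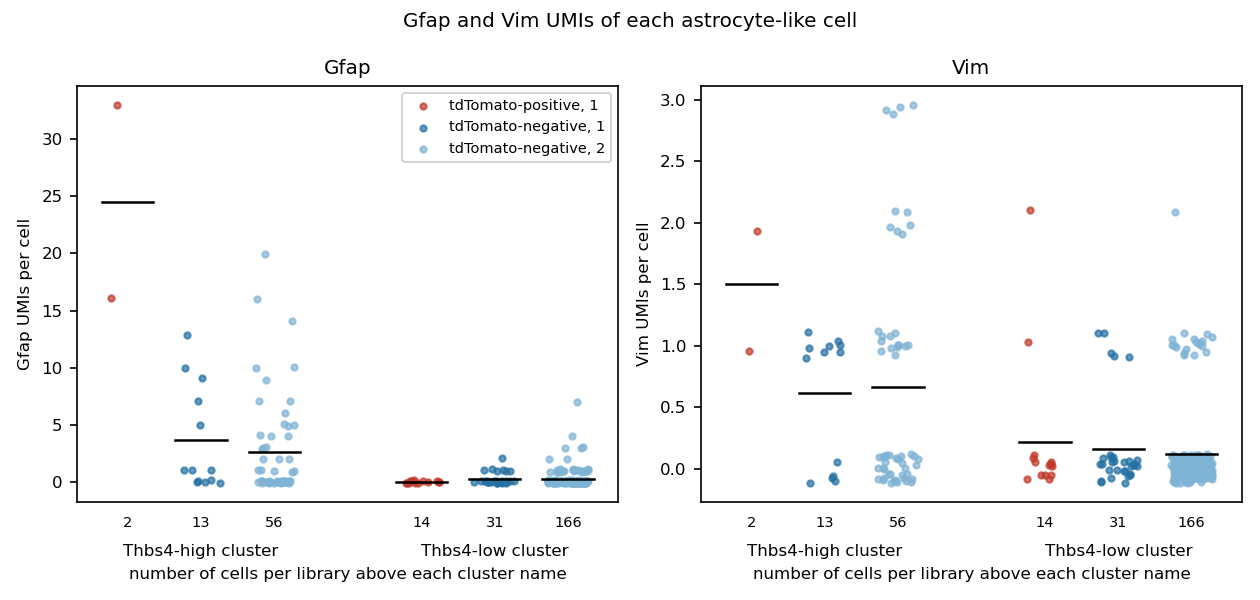
Gfap UMIs (left) and Vim UMIs (right) of each astrocyte-like cell, by cluster and library, with the number of cells above each cluster name and the mean per library as a line. Points are shifted slightly at random to separate them. Cells with 5 or more Gfap UMIs number 19 of 71 in the Thbs4-high cluster and 1 of 211 in the Thbs4-low cluster, and the 2 red points at 33 and 16 are the tdTomato-positive cells that Scrublet called.

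Both tdTomato-positive cells of the Thbs4-high cluster were Scrublet calls. They had 33 and 16 Gfap UMIs, astrocyte markers at 17017 and 13724 CPM and ependymal markers at 2659 and 3202 CPM, where the other 8 cells of the 10 with the most Gfap, all from tdTomato-negative libraries, had ependymal markers at 0 to 386 CPM. Ependymal markers were also present in other tdTomato-positive cells, at 1336 CPM in the Thbs4-low cluster, 1224 CPM in endothelial-like cells and 2907 CPM in mural-like cells. Their 49 UMIs were all of the Gfap in tdTomato-positive astrocyte-like cells and most of the 77 Gfap UMIs of that library. Without the called cells the tdTomato-positive library had 0 Gfap UMIs in 14 astrocyte-like cells, which allows up to 114.5 CPM.

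Outside the astrocyte-like clusters Gfap was low. Ependymal-like cells had 42.5 CPM among tdTomato-positive cells, against 66.7 and 17.3 CPM in tdTomato-negative libraries 1 and 2, from 25, 3 and 3 UMIs. Oligodendrocyte-like cells averaged 37.7 ± 0.859 CPM (SD, n = 2), the Ung cluster 15.7 ± 10.8, the Prokr2 cluster 11.5 ± 3.99, dividing-like cells 10.6 ± 3.23, neuroblast-like cells 7.79 ± 0.172 and oligodendrocyte precursor-like cells 7.70 ± 10.9 (n = 2 each). Endothelial-like cells had 1 UMI (29.1 CPM), and microglia-like and mural-like cells had 0 UMIs in 14 and 8 cells. The order ran from the Thbs4-high cluster, above all others in each library, to the Thbs4-low cluster and ependymal-like cells, whose ranges overlapped. Oligodendrocyte-like cells had 37.1 CPM in the tdTomato-positive library, against 38.3 CPM in tdTomato-negative library 2 and 86.7 CPM in the 3 cells of library 1, from 1 UMI. The Ung range of 8.07 to 23.3 CPM overlapped those of ependymal-like, Prokr2 and dividing-like cells. A Gfap UMI was found in 12.4% of ependymal-like cells (8.46% to 17.3%, median 3632.5 UMIs per cell), 8.51% of dividing-like cells (4.48% to 14.4%, median 7208) and 1.91% of neuroblast-like cells (0.772% to 3.90%, median 2287), a class that should lack the gene. At 1000 UMIs per cell these shares were 2.78% (1.03% to 5.95%), 0 of 141 cells, which allows up to 2.13%, and 1.10% (0.300% to 2.79%). The thinned intervals of ependymal-like and neuroblast-like cells overlapped, while the pooled ratio of their levels was 4.88 (95% counting interval 2.11 to 13.1).

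Between classes, edgeR's quasi-likelihood test on summed counts, with library as a block, gave Gfap lower in ependymal-like than in astrocyte-like cells. The levels were 42.5, 66.7 and 17.3 CPM in ependymal-like cells, against 1524, 575 and 346 CPM in astrocyte-like cells of the 3 libraries, and the log2 fold change was -4.42 ± 0.34 (adjusted p = 2.62e-36). With the called cells removed it was -2.96 (adjusted p = 1.45e-13). Over all 3097 genes tested in this comparison 32.2% passed at an adjusted p of 0.05, 19.3% higher and 12.9% lower.

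Astrocyte-like cells exceeded dividing-like cells, at 8.33 and 12.9 CPM in the tdTomato-negative libraries, by a log2 fold change of 5.12 ± 0.37 (adjusted p = 6.64e-42, 47.3% of genes called, 23.1% higher and 24.2% lower). They exceeded neuroblast-like cells, at 7.67 and 7.91 CPM, by 5.61 ± 0.42 (adjusted p = 1.1e-38, 42.2% called, 21.6% higher and 20.6% lower). Both held without any 1 library, over ranges of 4.83 to 6.26 and 5.47 to 6.38. Gfap did not pass in ependymal-like against dividing-like cells (0.70 ± 0.58, adjusted p = 0.331) or ependymal-like against neuroblast-like cells (1.19 ± 0.67, adjusted p = 0.142). With the Scrublet calls removed and the cells clustered again these became 2.06 (adjusted p = 0.00166) and 2.71 (adjusted p = 0.000591). Both also passed under the stricter cell filter (1.54 and 2.74) and with no block for library (1.63 and 2.14), and the second at resolution 0.5 (2.17). The cause of these changes was not tested. Dividing-like and neuroblast-like cells differed by 0.49 ± 0.71 (adjusted p = 0.728).

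**Figure D2:**
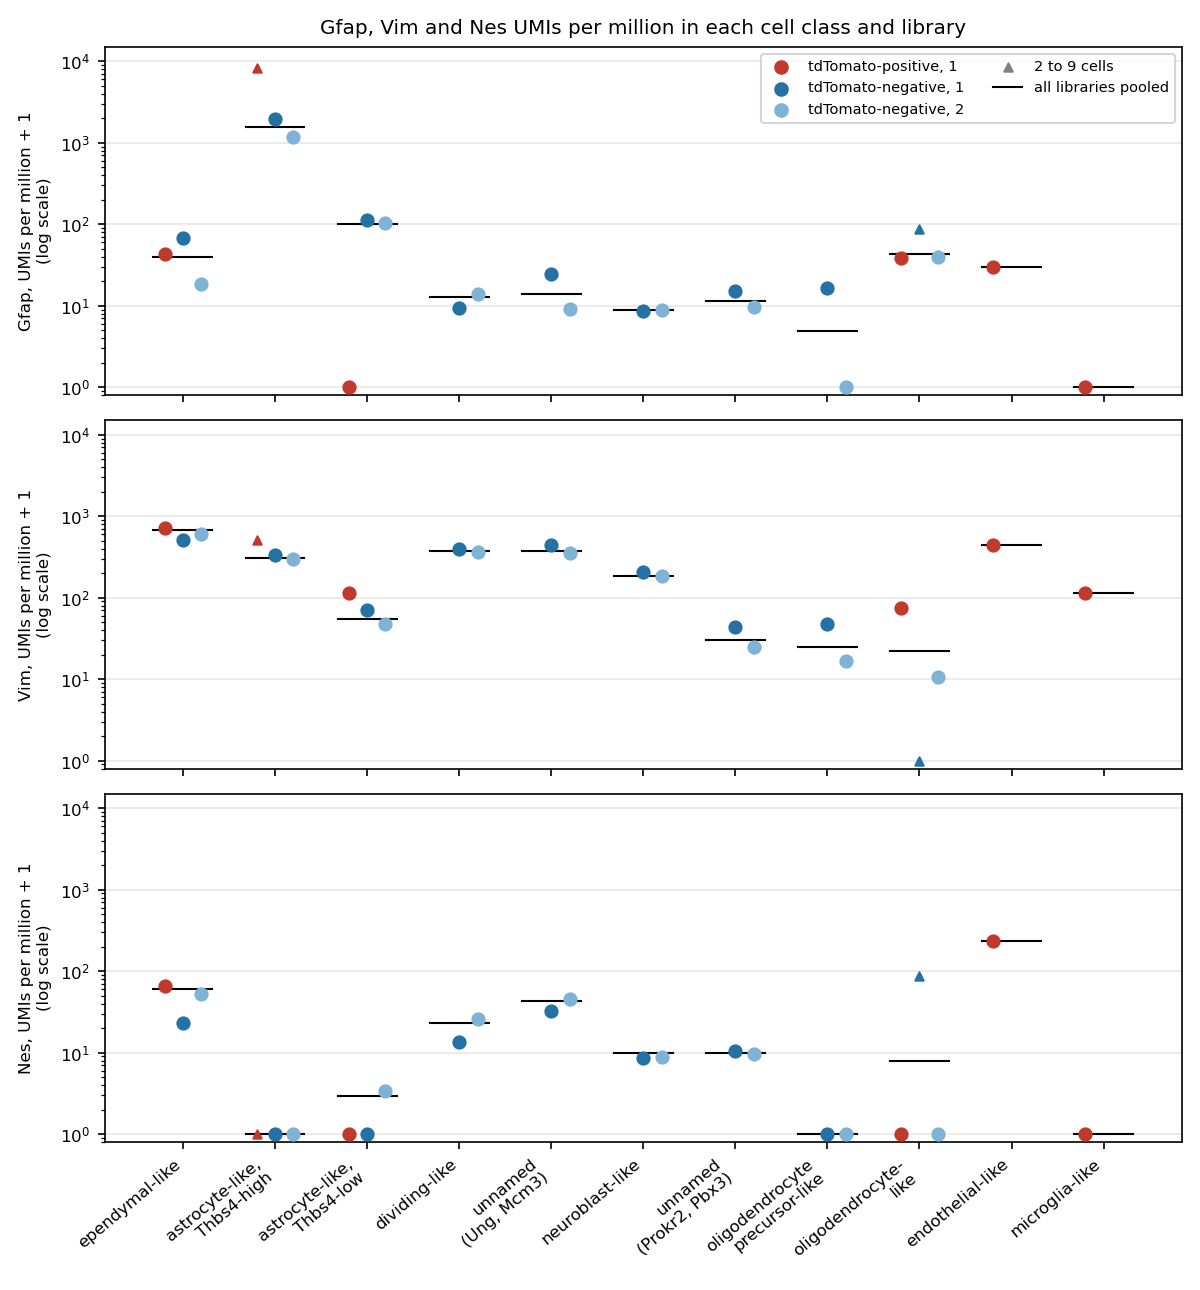
Level of Gfap, Vim and Nes in CPM for each class or cluster except mural-like cells, on a log axis after adding 1 that is the same for each gene. There is 1 point per library with 2 or more cells (triangles for 2 to 9 cells) and a line at the pooled level. The Gfap level of the Thbs4-high cluster (1164 to 8239 CPM), the Vim level of ependymal-like cells (512 to 722 CPM) and the Nes level of endothelial-like cells (233 CPM) stand highest.

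Vim was highest in ependymal-like cells, at 722 CPM among tdTomato-positive cells, against 512 and 604 CPM in tdTomato-negative libraries 1 and 2, a mean of 613 ± 106 CPM (SD, n = 3). The Ung cluster followed with 398 ± 63.8 CPM, dividing-like cells with 382 ± 19.4, the Thbs4-high cluster with 313 ± 25.8 and neuroblast-like cells with 195 ± 16.8 (n = 2 each). The Ung and dividing-like ranges overlapped, and the pooled ratio of dividing-like over Thbs4-high cells was 1.24 (95% counting interval 0.913 to 1.73). In both tdTomato-negative libraries dividing-like cells stood above the Thbs4-high cluster, by a difference within counting error. The Thbs4-low cluster had 77.2 ± 34.3 CPM (n = 3). Oligodendrocyte-like cells (41.9 ± 45.7), the Prokr2 cluster (33.3 ± 13.5) and oligodendrocyte precursor-like cells (31.1 ± 21.4, n = 2 each) were lowest and overlapped. In the tdTomato-positive library endothelial-like cells had 437 CPM, mural-like cells 253 CPM from 2 UMIs and microglia-like cells 115 CPM from 3 UMIs.

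A Vim UMI was found in 74.4% of ependymal-like cells (68.3% to 79.8%) and 81.6% of dividing-like cells (74.2% to 87.6%), but the dividing-like cells were deeper, with a median of 7208 UMIs per cell, against 3632.5 in ependymal-like cells. At 1000 UMIs per cell the order turned round, with 44.9% (38.2% to 51.8%) in ependymal-like cells and 29.1% (21.7% to 37.3%) in dividing-like cells. Neuroblast-like cells had 24.3% with all UMIs and 13.5% thinned. Oligodendrocyte precursor-like cells had 8.70% with all UMIs (median 3129) and 2.94% thinned. As many as 18 Vim UMIs were counted in 1 ependymal-like cell and 17 in 1 dividing-like cell, against at most 3 in any astrocyte-like cell.

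By edgeR's test Vim was higher in ependymal-like than in astrocyte-like cells (187, 136 and 104 CPM in the 3 libraries). The log2 fold change was 2.22 ± 0.28 (adjusted p = 1.1e-13), where 32.2% of genes passed, 19.3% higher and 12.9% lower. These groups did not overlap, and the share of genes for which that holds was not counted. Vim was also higher in ependymal-like than in neuroblast-like cells (207 and 183 CPM) by 1.46 ± 0.29 (adjusted p = 2.89e-06), where 43.6% of genes passed, 25.6% higher and 18% lower. Without tdTomato-negative library 2 that p was 0.238. Against dividing-like cells, at 396 and 368 CPM, the difference of 0.49 ± 0.27 did not pass (adjusted p = 0.12, 44.3% called, 24.9% higher and 19.5% lower). It passed under 5 of the alternatives tried with all libraries, at log2 fold changes of 0.59 to 0.78, and without the tdTomato-positive library. Dividing-like cells had more Vim than neuroblast-like cells (0.97 ± 0.27, adjusted p = 0.00302, 17.6% called, 9.4% higher and 8.17% lower), a call lost without either tdTomato-negative library, under the stricter cell filter (0.86, adjusted p = 0.0517) and with clustering on the other genes (0.56, adjusted p = 0.0662). Astrocyte-like cells had less than dividing-like cells (-1.73 ± 0.29, adjusted p = 1.15e-08) and less than neuroblast-like cells (-0.76 ± 0.31, adjusted p = 0.0349). The first of these was lost without tdTomato-negative library 2 (adjusted p = 0.0811), and the second without either tdTomato-negative library and under 4 alternatives with all libraries kept.

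**Figure D3:**
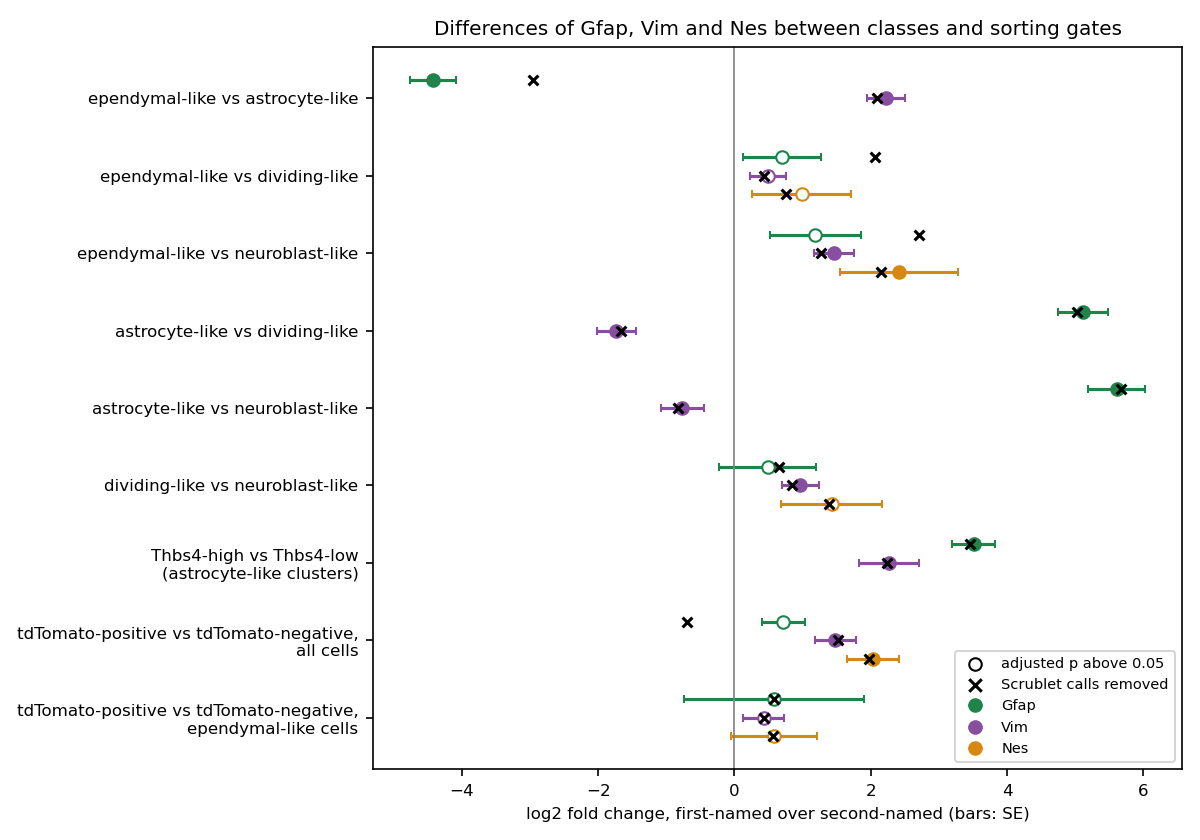
Log2 fold change of each gene between classes, with its SE, from edgeR's fit on summed counts; crosses give the value with the Scrublet calls removed. Positive values are higher in the class named first, and Nes is not drawn where astrocyte-like cells enter because they held 1 UMI.

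Nes was rare in every class of the neural lineage. Ependymal-like cells had 64.6 CPM among tdTomato-positive cells, against 22.2 and 51.8 CPM in tdTomato-negative libraries 1 and 2, from 38, 1 and 9 UMIs. Next came the Ung cluster, led also by replication genes such as Mcm3, with 31.1 and 44.4 CPM, and dividing-like cells with 12.5 and 24.6 CPM, in tdTomato-negative libraries 1 and 2. The Prokr2 cluster averaged 9.08 ± 0.627 CPM and neuroblast-like cells 7.79 ± 0.172 CPM (SD, n = 2 each). The ependymal-like range overlapped those of the Ung cluster and of dividing-like cells, while the Ung cluster was above dividing-like cells in both libraries, a difference that was not tested. Astrocyte-like cells held 1 Nes UMI in 282 cells, in a Thbs4-low cell of tdTomato-negative library 2 with 6770 UMIs. None of the 71 Thbs4-high cells had one, which allows a share of up to 4.23%. Oligodendrocyte precursor-like cells had 0 UMIs in 69 cells, which allows up to 4.35%.

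The highest Nes level, 233 CPM, was in the 20 endothelial-like cells, where 8 UMIs lay in 5 cells (95% interval of the share 8.66% to 49.1%). Over ependymal-like cells the pooled ratio was 3.92 (95% counting interval 1.60 to 8.36). Endothelial markers in ependymal-like cells summed to 42, 44.5 and 28.8 CPM in the 3 libraries and mural markers to 141, 111 and 57.5 CPM, against 21707 CPM of endothelial markers in endothelial-like cells.

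Nes was found in 15.8% of ependymal-like cells (11.4% to 21.1%) and 15.6% of dividing-like cells (10.0% to 22.7%), and at 1000 UMIs per cell in 7.41% (4.29% to 11.8%) and 1.42% (0.172% to 5.03%). The pooled level in ependymal-like cells was 40.3-fold that in astrocyte-like cells, with a 95% counting interval of 6.90 to 1624 because it rests on 1 UMI. The test across genes passed (adjusted p = 0.000166), and missed without tdTomato-negative library 2 (adjusted p = 0.290). Without the tdTomato-positive library, which held its highest levels, Nes missed the count filter. Nes was therefore not tested between classes without that library. Dividing-like cells, which that library lacked, held 24 Nes UMIs. Ependymal-like cells exceeded the Thbs4-high cluster at least 2.97-fold and the neuroblast-like cells by a log2 fold change of 2.41 ± 0.86 (adjusted p = 0.0149). The comparison with neuroblast-like cells missed with DESeq2 (2.43, adjusted p = 0.0820) and without tdTomato-negative library 2 (1.30, adjusted p = 0.832). Against dividing-like cells it was 0.99 ± 0.73 (adjusted p = 0.271). Astrocyte-like cells were lower than dividing-like cells, at a pooled log2 ratio of -3.89 (-9.26 to -1.28). For this pair edgeR's test, on a log2 fold change of -3.56 ± 1.07, passed (adjusted p = 0.00283). That call was lost with DESeq2 (adjusted p = 0.0606) and without tdTomato-negative library 2 (adjusted p = 0.413). Astrocyte-like against neuroblast-like cells had a pooled log2 ratio of -2.42 (-7.91 to 0.54), and edgeR's test, on -2.13 ± 1.31, did not pass (adjusted p = 0.185). Dividing-like and neuroblast-like cells differed by 1.43 ± 0.74 (adjusted p = 0.190).

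The 3 genes were next read in the same cells. Co-detection is set beside the product of the 2 genes' shares within each library, which is the number of cells expected if the 2 were found independently, and both depend on depth. Among the 282 astrocyte-like cells, 29 had UMIs of both Gfap and Vim, where the product of the shares gave 14.96. At 1000 UMIs per cell the counts were 9 and 4.41. Within the Thbs4-high cluster 21 cells had both against a product of 17.6, and within the Thbs4-low cluster 8 had both against 4.22. The Vim level in astrocyte-like cells with a Gfap UMI was 209 and 215 CPM in tdTomato-negative libraries 1 and 2, against 87.1 and 65.8 CPM in those without one. Median depths in those libraries were 2410 and 2507 UMIs per cell with Gfap and 1786 and 2379 without. No astrocyte-like cell held Nes together with Gfap or Vim.

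In ependymal-like cells, 125 of 234 held Vim alone, 23 held Vim and Nes, 17 held Gfap and Vim and 9 held all of the genes, while 52 held none. Gfap and Vim were together in 26 cells against a product of 21.4, Gfap and Nes in 9 against 4.55, and Vim and Nes in 32 against 27.6. At 1000 UMIs per cell the counts were 2 against 2.70, 1 against 0.562 and 4 against 7.17. The 9 cells with all of the genes had a median of 4696 UMIs and the 52 with none 1652.

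In dividing-like cells Vim and Nes were together in 16 of 141 cells against a product of 18.0 and Gfap and Vim in 10 against 9.79. Gfap and Nes were never in the same dividing-like cell, where the product of the shares gave 1.88. In neuroblast-like cells 88 of 366 held Vim alone, 8 Nes alone and 6 Gfap alone, and 1 held Gfap and Vim. In the Ung cluster Vim and Nes were together in 13 cells against 11.9. Gfap and Nes were found in the same cell in 9 ependymal-like cells and 1 endothelial-like cell and in none of the other classes and clusters.

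**Figure D4:**
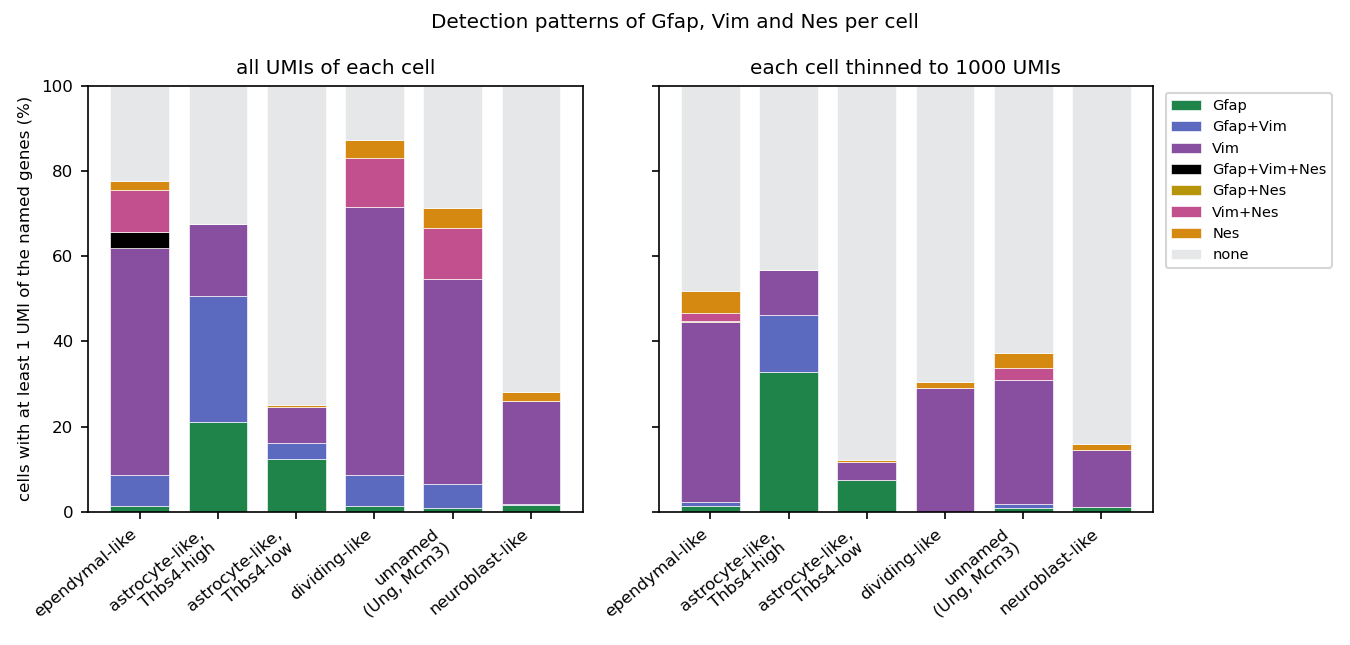
Share (%) of ependymal-like, Thbs4-high, Thbs4-low, dividing-like, Ung and neuroblast-like cells with UMIs of Gfap, Vim or Nes alone or together. The left panel uses all UMIs and the right panel cells thinned to 1000 UMIs, without cells that had fewer. With all UMIs, Vim alone makes up 53.4% of ependymal-like and 63.1% of dividing-like cells, and 71.9% of neuroblast-like cells held none of the genes.

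Over 16 sums of a library and a named class (8 classes, 3 libraries), log2(CPM + 10) of Vim and Nes correlated at r = 0.73, Gfap and Vim at 0.06 and Gfap and Nes at -0.18, as a description of points that share libraries and depths. Among 3546 genes kept out of the clustering, the nearest to Gfap were Atp1b2 (a subunit of the sodium pump of glia, r = 0.91), Lgr4 (a receptor for R-spondins, 0.90), Slc4a4 (a bicarbonate transporter, 0.89), Hopx (a homeodomain protein, 0.89) and Slc39a12 (a zinc transporter, 0.88). Atp1b2 averaged 588 ± 223 CPM in the Thbs4-high cluster (SD, n = 2) and 1076 ± 248 CPM in the Thbs4-low cluster (n = 3), the reverse of the order for Gfap. The nearest to Vim were S100a11 (a calcium-binding protein, 0.82), Nmt2 (a myristoyltransferase, 0.79), Cspp1 (a protein of centrosome and cilium, 0.78), Clic1 (0.77) and Emp1 (an epithelial membrane protein, 0.77). For Nes they were Hspb1 (the small heat shock protein Hsp27, 0.87), Ahnak (0.84), Myh9 (non-muscle myosin, 0.81), Apool (0.80) and Rassf9 (0.79).

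The genes around these filaments were read from 5 lists. A gene was tested if its counts were high enough in 1 sum or more, so it could enter through the class where it was high. The shares over all genes are of genes that met the same filter. Other intermediate filament genes had 8 of 24 members tested. In ependymal-like against astrocyte-like cells 4 were higher and none lower, where 19.3% of all genes were higher and 12.9% lower (median log2 fold change 1.63, all genes 0.09). Krt15 and Krt18, keratins of simple and stratified epithelia, averaged 120 ± 26.5 and 76.7 ± 40.7 CPM in ependymal-like cells (SD, n = 3) with 1 UMI each in astrocyte-like cells, pooled ratios of 74.7 (13.1 to 2984) and 71.4 (12.5 to 2851). Synm (synemin, a partner of vimentin in filaments) averaged 85.2 ± 37.7 CPM in ependymal-like cells, against 2.43 ± 4.20 CPM in astrocyte-like cells (3.75 ± 0.71, adjusted p = 1.18e-06). Against dividing-like and neuroblast-like cells 4 of the 8 were higher in each, with 1 and 2 lower, where 24.9% and 25.6% of all genes were higher and 19.5% and 18% lower. Lmnb1, the nuclear lamin B1, was lower in astrocyte-like than in dividing-like cells (-5.09 ± 0.38, adjusted p = 3.45e-38), and Ina (internexin, a neuronal filament) averaged 1.21 ± 2.10 CPM in astrocyte-like and 85.6 ± 56.0 CPM in neuroblast-like cells.

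Of the filament linkers, chaperones and modifying enzymes, 15 of 20 were tested, and in ependymal-like against astrocyte-like cells 2 were higher and 1 lower, where 19.3% and 12.9% of all genes were. Hspb1, a chaperone that binds filaments, had 170 UMIs in ependymal-like cells against 2 in astrocyte-like cells, a pooled ratio of 71.4 (19.5 to 594). Cryab (alpha-B crystallin, a chaperone of GFAP and vimentin) averaged 658 ± 181 CPM in ependymal-like and 173 ± 66.6 CPM in astrocyte-like cells (1.99 ± 0.28, adjusted p = 3.06e-11). Macf1, a linker of actin and microtubules, was lower (-0.62 ± 0.25, adjusted p = 0.0411). Astrocyte-like against dividing-like cells had 5 higher and 5 lower, where 23.1% of all genes were higher and 24.2% lower. The mitotic kinases Aurkb and Plk1, which phosphorylate vimentin, were lower there, Aurkb at a pooled log2 ratio of -5.85 (-8.91 to -3.98) and Plk1 at -3.88 ± 0.54 (adjusted p = 5.65e-12). The dividing-like class was clustered and named with mitotic genes, so lower mitotic kinases in astrocyte-like cells largely follow from that choice. Padi2, an enzyme that citrullinates GFAP and vimentin, was higher at a pooled ratio of 19.4 (4.81 to 169).

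Among genes that act on Gfap transcription through JAK-STAT, BMP-SMAD, Notch and NFI, 18 of 22 were tested. Astrocyte-like cells had 8 higher and 6 lower than dividing-like cells and 8 higher and 5 lower than neuroblast-like cells (medians 0.59 and 0.93, all genes -0.01 and -0.00). Over all genes 23.1% were higher and 24.2% lower in the first of these comparisons and 21.6% and 20.6% in the second. The Notch targets Hes1 and Hes5 were both higher than in neuroblast-like cells (6.15 ± 0.42, adjusted p = 1.79e-45, and 5.21 ± 0.38, adjusted p = 1.85e-40). In ependymal-like against astrocyte-like cells 3 were higher and 5 lower, where 19.3% and 12.9% of all genes were. Hes5 averaged 16.2 ± 11.1 CPM in ependymal-like and 372 ± 355 CPM in astrocyte-like cells (-4.68 ± 0.46, adjusted p = 1.78e-22), and the BMP receptor Bmpr1b had 0 UMIs against 35, at least 13.9-fold lower. Socs3 went the other way and was higher in ependymal-like cells (4.72 ± 1.89, adjusted p = 0.04 by edgeR's test). It was also lower in astrocyte-like than in dividing-like cells (-4.77 ± 1.60, adjusted p = 0.00779 by the same test). Between the Thbs4-high and Thbs4-low clusters, 1 of 19 passed, where 4.11% of all genes did. Hes1 was lower in the Thbs4-high cluster, at 87.7 ± 124 CPM against 1052 ± 583 CPM (-2.74 ± 0.38, adjusted p = 3.12e-10). Stat3, a factor that binds the Gfap promoter, averaged 98.0 ± 37.2 CPM in the Thbs4-high cluster and 21.9 ± 19.6 CPM in the Thbs4-low cluster and did not pass (log2 fold change 1.02 ± 0.67, adjusted p = 0.540); it was chosen after its values were seen.

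SOX and POU factors of the Nes neural enhancer had 7 of 8 members tested. None was higher and 3, 4 and 5 were lower in ependymal-like than in astrocyte-like, dividing-like and neuroblast-like cells (medians -1.25, -2.03 and -1.40). Over all genes 12.9%, 19.5% and 18% were lower in these comparisons and 19.3%, 24.9% and 25.6% were higher. Nes averaged 46.2 ± 21.7 CPM in ependymal-like cells (SD, n = 3). Sox11 averaged 72.2 ± 58.8 CPM in ependymal-like cells, against 2077 ± 130 CPM in dividing-like cells (-4.23 ± 0.34, adjusted p = 3.57e-33) and 2862 ± 528 CPM in neuroblast-like cells. Pou3f2, Pou3f3 and Pou3f4 were all lower in ependymal-like than in astrocyte-like cells, by -1.25 ± 0.40, -2.07 ± 0.39 and -2.24 ± 0.65 (adjusted p = 0.00684, 8.37e-07 and 0.00293). Of 17 reactive astrocyte genes 4 were tested, and all 4 were higher in ependymal-like than in astrocyte-like cells (median 3.20), where 19.3% of all genes were higher. Cp (ceruloplasmin) had 74 UMIs against 0, at least 20.7-fold higher, and Cd109 had 71 against 2, a pooled ratio of 29.8 (7.95 to 251). Both met the count filter through classes other than astrocyte-like cells, so the filter partly sets the result of 4 out of 4. No tested gene of this list passed between the Thbs4-high and Thbs4-low clusters.

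Last, the sorting gates were compared, 1 tdTomato-positive library against 2 tdTomato-negative ones. The lone tdTomato-positive library is assumed to vary like the other 2, so these p-values hold no measured spread for that gate and compare the libraries. Over all kept cells Vim had 629 CPM in the tdTomato-positive library, against 245 and 224 CPM in the tdTomato-negative libraries (log2 fold change 1.48 ± 0.30, adjusted p = 8.38e-06). Nes had 65.2 CPM, against 13.0 and 17.6 CPM (2.04 ± 0.38, adjusted p = 8.71e-07). Gfap had 107 CPM, against 74.5 and 61.9 CPM (0.72 ± 0.32, adjusted p = 0.0584). In this comparison 41.8% of genes passed, 22.9% higher and 19% lower. Ependymal-like cells were 177 of 252 in the tdTomato-positive library, against 12 of 256 and 45 of 1121, and in sums over all cells a different mix of cells and a different level per cell cannot be told apart. With the Scrublet calls removed Gfap was at 39.7 CPM in the tdTomato-positive library, against 74.1 and 61.4 CPM, and its sign turned (-0.69, adjusted p = 0.134), and under the stricter cell filter its log2 fold change was 0.02.

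Within ependymal-like cells no member passed between the gates. Vim was 722 CPM in tdTomato-positive cells, against 512 and 604 CPM in tdTomato-negative ones, Nes 64.6 against 22.2 and 51.8 CPM, and Gfap 42.5 against 66.7 and 17.3 CPM. The log2 fold changes were 0.43 ± 0.30 for Vim, 0.59 ± 0.63 for Nes and 0.58 ± 1.32 for Gfap (adjusted p = 0.999 for each). Of 4098 genes 0.293% passed, 0.171% higher and 0.122% lower. The tdTomato-negative values rest on 3 Gfap UMIs in each library and on 1 and 9 Nes UMIs. In simulated counts 8.89% of 2-fold and 70% of 4-fold changes were recovered in this comparison. The simulation raised genes drawn from those that met the count filter and used a fixed dispersion not estimated from these data. Its rates therefore do not describe genes with as few UMIs as Gfap and Nes had here.

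**Figure D5:**
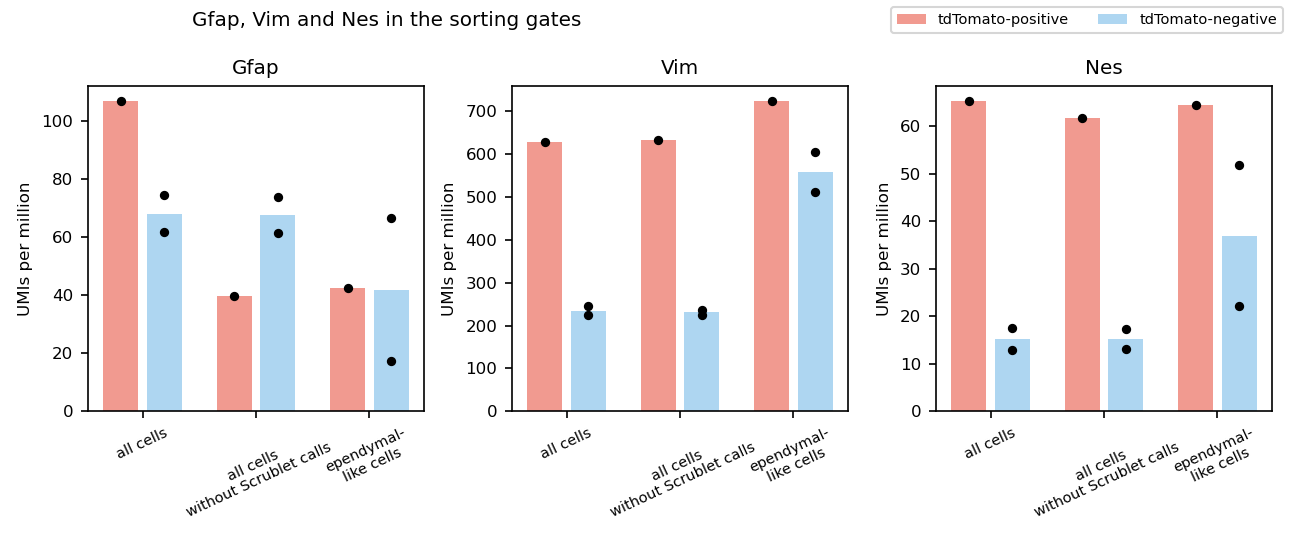
Level of Gfap, Vim and Nes in CPM by sorting gate (red bars tdTomato-positive, blue bars the mean of the tdTomato-negative libraries, points single libraries), over all kept cells, over all cells without the Scrublet calls, and over ependymal-like cells. The Vim level of 629 CPM over all cells stands apart from 245 and 224 CPM, while within ependymal-like cells the values are 722, 512 and 604 CPM.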

How the data were processed

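The 3 libraries were made by droplet capture (10x). The deposited UMI counts are the authors' raw count matrices per gene and barcode, made with Cell Ranger and STAR on mm10 (GRCm38.p5), with Seurat 1.4.0.15 also named, per the submitters' processing notes. The sort excluded doublets by gate, per the labels' protocols. Members and gene lists were chosen with earlier results of these data known. The cell filter asked for 300 genes or more and 25% or less mitochondrial UMIs. Cells were clustered in scanpy 1.11.5 (1000 variable genes, 20 components, 15 neighbours, Leiden resolution 1.0) on 14062 genes, without the members and the listed genes, which with the other held-out genes made 13936 that could be tested. Clusters were named from 134 markers in 13 lists. The clusters still come from other genes of the same cells. Counts were summed per library and class (at least 10 cells) and tested with edgeR 4.0.16 (R 4.3.3). Its quasi-likelihood test was used with Benjamini-Hochberg adjustment at 0.05, and with library as a block for classes and clusters. The fits held 16 sums for classes, 18 for astrocyte-like clusters and 3 for gates, with 6, 7 and 1 residual degrees of freedom. In all of them the spread was pooled over genes and not taken from the gene tested. Fold changes resting on 1 to 3 UMIs are pooled ratios with exact conditional intervals, except where a value is given with edgeR's test or under an alternative. Limits for 0 take 3 counts. DESeq2 1.42.0, other scaling, filters, clusterings and leaving out libraries were alternatives. Tests were checked on simulated data. Named list genes were at most 3 per list and comparison, those with the largest fold changes among the genes that passed, and likeness names the 5 nearest genes per member.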

Additional observations from a re-analysis of the deposited data

Results flagged for a closer look

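Vim had 22 UMIs in the 62 barcodes of the tdTomato-positive library that the cell filter left out, which the comparisons do not use. That is 324 CPM of 68004 UMIs, against 0 Vim UMIs in the 3 and 6 barcodes left out of tdTomato-negative libraries 1 and 2, which held 3751 and 7716 UMIs. The left-out tdTomato-positive barcodes had a median of 991 UMIs and 30.4% mitochondrial UMIs, with ependymal markers at 14234 CPM and astrocyte markers at 3088 CPM. They also held 3 Gfap UMIs and 1 Nes UMI.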

How the results depend on the processing

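Of 219 values of 26 differences recomputed with all libraries kept, 195 kept their direction and side of the threshold, 8 lost the threshold, 15 gained it and 1 turned round. The losses were Vim in astrocyte-like against neuroblast-like cells (4 settings), Vim in dividing-like against neuroblast-like cells (2), Nes in ependymal-like against neuroblast-like cells (DESeq2) and Nes in astrocyte-like against dividing-like cells (DESeq2). With 14 Scrublet calls removed, Gfap was 2.06 in ependymal-like against dividing-like cells, 2.71 against neuroblast-like cells, and -0.69 between gates over all cells (log2 fold changes throughout). The stricter cell filter gave 1.54 and 2.74 for the same class comparisons of Gfap and 0.86 for Vim in dividing-like against neuroblast-like cells. Resolution 0.5 gave Vim 0.59 in ependymal-like against dividing-like cells and Gfap 2.17 against neuroblast-like cells. Clustering on the other genes gave Vim 0.59 in ependymal-like against dividing-like cells, Vim 0.56 in dividing-like against neuroblast-like cells and Nes -2.84 in astrocyte-like against neuroblast-like cells. RLE scaling gave Vim 0.78 in ependymal-like against dividing-like and -0.52 in astrocyte-like against neuroblast-like cells, and Gfap 0.77 between gates over all cells. No count filter gave Vim -0.79 in astrocyte-like against neuroblast-like cells. DESeq2 gave Vim 0.72 and -0.50 for the same comparisons as RLE, Nes 2.43 in ependymal-like against neuroblast-like cells and Nes -2.93 in astrocyte-like against dividing-like cells. With no replicate block for library, ependymal-like against dividing-like cells had Gfap 1.63, Vim 0.70 and Nes 1.39, ependymal-like against neuroblast-like cells Gfap 2.14 and astrocyte-like against neuroblast-like cells Vim -0.69. No paired analysis was possible because, for the gates, 1 library stands against 2. The cause of these changes was not tested.

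Leaving out 1 library at a time gave 66 values, of which 52 counted as unchanged and 11 lost their call. Values between gates had no test without a library. They counted as unchanged if they kept their sign and moved by less than the SE of the main fit, so no call was kept there. Ranges were -4.42 to -3.60 (Nes, astrocyte-like against dividing-like), 4.65 to 5.07 (Nes, ependymal-like against astrocyte-like), 1.30 to 2.61 (Nes, ependymal-like against neuroblast-like), 2.01 to 2.33 (Vim, Thbs4-high against Thbs4-low), -1.82 to -1.46 (Vim, astrocyte-like against dividing-like), -0.85 to -0.52 (Vim, astrocyte-like against neuroblast-like), 0.94 to 0.98 (Vim, dividing-like against neuroblast-like), 0.26 to 0.62 (Vim, ependymal-like against dividing-like) and 1.202 to 1.59 (Vim, ependymal-like against neuroblast-like). Between gates in ependymal-like cells they were -0.45 to 1.10 for Gfap, turning round without tdTomato-negative library 2, and 0.31 to 1.42 for Nes, values with no test. Each class range above but Vim in ependymal-like against dividing-like cells includes a lost call. Nes gave no value without the tdTomato-positive library, where it missed the count filter. Without tdTomato-negative library 2 astrocyte-like cells held 0 Nes UMIs. For their Nes ranges, the value without that library is therefore a model value on an empty count. Genes called numbered 208 by DESeq2 against 544 in dividing-like against neuroblast-like cells, 1908 against 4579 between gates over all cells, 0 against 12 between gates in ependymal-like cells (133 at an unadjusted p under 0.05 in edgeR), and 198 with RLE, 84 with no count filter and 82 with no replicate block against 128 between the astrocyte-like clusters. Without tdTomato-negative library 2, 6 were called between those clusters.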
